A study of Zea mays with 18 samples.

Results

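The gene sgo1 (GRMZM2G074082) of maize encodes a shugoshin. It is 1 of 39475 gene IDs in a table of RNA-seq counts, and it was chosen from measured values: it was present in egg cells and had 0 counts in sperm cells. Its levels in sperm and egg are therefore described without a test, as is every value set against egg. The counts carry the gene under this ID, and the reference table of RefSeq genes pairs the ID with the symbol sgo1 and with no other gene. No further gene of that table has the name shugoshin among its symbols, and in its assembly 0 other genes overlap sgo1.

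The libraries hold polyadenylated RNA of isolated cells of untreated wild-type plants of the inbred line B73, with 3 libraries in each of 6 groups. Sperm libraries were made from 1000 cells each, egg libraries from 20 and libraries of apical cells from 16. Zygotes labelled 12 h, read here as hours after pollination, came as 14 to 15 cells per library, zygotes labelled 24 h as 16 to 17, and basal cells as 13 to 14. The apical and basal cells are the daughters of the first division of the zygote. All libraries were amplified by PCR from pools of isolated cells, 1000 for sperm and 20 or fewer for each other group. Nothing in the labels ties replicates to separate plants. The p-values therefore reflect how these libraries vary, which can be a technical spread.

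Sister chromatids are held together by cohesin, a ring of SMC proteins closed by a kleisin subunit. Shugoshins gather at the inner centromere and, by recruiting protein phosphatase 2A, keep cohesin there from being removed before its time. Maize sgo1 is known for meiosis, where it protects the meiotic kleisin at centromeres through the first division so that sister chromatids part only in the second. The kleisin it protects is the product of afd1, the maize REC8 gene. Eggs and sperm arise after meiosis, by mitoses of haploid cells, and the zygote divides by mitosis.

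Library totals ranged from 11128444 to 25771168 counts. The factors of TMM, a scaling that corrects for the few genes that fill a library, ran from 0.454 to 0.502 in sperm, from 0.872 to 1.22 in egg, from 1.36 to 1.56 in zygotes and from 0.926 to 1.134 in the daughter cells. The scaling therefore moves levels between groups, and for sgo1 values by library size only are given where they differ. Levels are in CPM, counts scaled to library size, after TMM scaling unless said otherwise. The labelled cell types were checked against marker genes. The gamete fusion gene hap2 stood at 586 to 923 CPM in sperm and at most 8.62 CPM elsewhere. The 3 embryo sac genes es1, es2 and es4 summed to 574 to 3786 CPM in egg, 1660 to 1949 in 12 h zygotes and 595 to 1581 in 24 h zygotes, against 22.5 to 30.03 in the apical and 98.5 to 154 in the basal libraries. Of 5 mature pollen genes, whose sum was 702 to 934 CPM in sperm, the sum in the apical cells ran from 1.75 to 97.5 CPM, and the top value belonged to apical replicate 1.

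Across the 6 groups, sgo1 was missing from sperm, present in egg, lowest in the zygote at 12 h and highest in the daughter cells. Sperm libraries held 0 counts of sgo1 in replicates 1, 2 and 3. Egg libraries held 552, 779 and 1576 counts, or 38.4, 56.3 and 95.3 CPM. Egg thus had the widest spread of the groups with the transcript, a coefficient of variation of 45.9%, with replicate 3 the highest. At 12 h the zygotes held 29.1, 24.7 and 21.3 CPM. At 24 h the values were 34.7, 36.3 and 38.4 CPM, with a coefficient of variation of 5.15%. The groups at 12 h and 24 h did not overlap, and the highest 24 h library reached just above the lowest egg library. Apical cells held 172, 117 and 176 CPM, and basal cells 134, 102 and 115 CPM. Every daughter library stood above every egg library and every zygote library, and apical replicate 2 lay within the range of the basal cells.

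**Figure D1:**
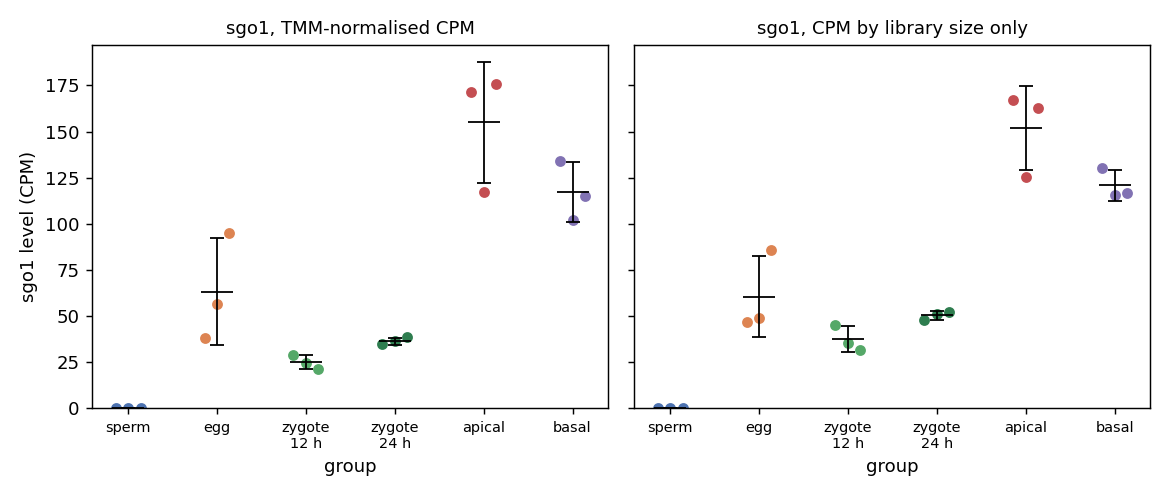
Level of sgo1 in CPM in each of the 18 libraries, by group, with TMM scaling on the left and library size only on the right; points are libraries, the horizontal mark is the mean of 3 and bars are ± 1 SD. In both panels the 3 sperm libraries sit at 0, the 12 h zygotes lie below the egg libraries, the 24 h zygotes overlap the egg libraries, and the daughter cells lie above all others, between 102 and 176 CPM on the left.

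The mean CPM of sgo1 was 63.3 ± 29.1 in egg, 25.1 ± 3.90 in the 12 h zygote, 36.5 ± 1.88 in the 24 h zygote, 155 ± 32.7 in the apical cell and 117 ± 16.2 in the basal cell (SD, n = 3 each). From lowest to highest the order was sperm, 12 h zygote, 24 h zygote, egg, basal cell, apical cell. Among neighbours in this order, the ranges of the 24 h zygote and egg overlapped, as did those of basal and apical cells, and the other neighbours did not overlap. The difference of the means of the 24 h zygote and egg, 26.9 CPM, was smaller than the SD of the eggs. Within each group, 76.0% of the genes with a count lay below sgo1 at 12 h, 81.7% at 24 h, 85.1% in egg, 94.7% in apical and 92.9% in basal cells. CPM are shares of a library, so that fewer cells of a type, less RNA per cell and a change in the other RNAs cannot be told apart.

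In sperm, 0 of 66501217 counts over the 3 libraries fell on sgo1. A floor of 3 counts over the group corresponds to 0.0935 CPM, and against it the egg level was at least 678-fold higher. The bound was 1344-fold with library size only and 348-fold with upper-quartile scaling. Such bounds cover counting error only, because the reads were amplified without molecular identifiers. Against egg, the 12 h zygote had 0.396 times the mean level, the 24 h zygote 0.576 times, apical cells 2.45 times and basal cells 1.85 times. With library size only the ratios were 0.618, 0.832, 2.51 and 1.99. Every 12 h library was below every egg library on both scales, although by library size only the gap was narrow, with 45.4 CPM in the highest 12 h library and 46.9 CPM in the lowest egg library.

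The tests of sgo1 between zygotes and daughter cells contrast neither sperm nor egg, the groups whose values chose the gene. The gene and the tests were, however, chosen with earlier results of these data known. To follow the transcript through the zygote before its division, the later zygotes were compared with the earlier ones. The 24 h level was 1.45 times that at 12 h, with a 95% interval of 0.945 to 2.21, a log2 fold change of 0.53 ± 0.29 (SE). It did not pass (edgeR quasi-likelihood test, adjusted p = 0.553 over 23806 genes, unadjusted p = 0.0842), although the 3 libraries at 24 h all stood above the 3 at 12 h. Of all tested genes, 80.4% had a smaller log2 fold change, and 1.04% were called in either direction.

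Across the first division the transcript rose in both daughters. Apical cells had 4.08 times the level of 24 h zygotes, with a 95% interval of 2.63 to 6.33, a log2 fold change of 2.03 ± 0.30 (SE; edgeR, adjusted p = 0.000718). Basal cells had 3.08 times the level, with an interval of 2.00 to 4.76, a log2 fold change of 1.62 ± 0.29 (SE; edgeR, adjusted p = 0.00319). In each comparison the 3 libraries of the daughter cell were above the 3 of the 24 h zygote. Among all tested genes, 13% were called higher in apical and 9.81% in basal cells, and 92.0% and 89.6% of all tested genes had a smaller log2 fold change than sgo1. With library size only the log2 fold changes were 1.59 and 1.26, and both calls held (edgeR, adjusted p = 0.00111 and 0.00517). Both comparisons share the 24 h libraries, so they are not independent of each other.

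Markers of other cells also moved across the division. The embryo sac genes fell to the levels given above. The sum of 5 genes listed as endosperm markers was 77.8 to 100.4 CPM in 24 h zygotes, 231 to 266 in the apical and 189 to 214 in the basal libraries. The part of these genes in the result for sgo1 was not tested. That sum was nearly all mez1, a Polycomb gene that embryos can express too, at 89.0, 243 and 204 CPM on average. The endosperm genes meg1, o2, fl2 and fie1 each stood at or near 0, at most 1.79 CPM in any library. Without apical replicate 1, the library with the high sum of pollen genes, the log2 fold change of sgo1 in apical cells was 1.94 (edgeR, adjusted p = 0.00334).

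The daughters were then compared with each other, without pairing of replicates. Apical cells had 1.32 times the level of basal cells, with a 95% interval of 0.867 to 2.02, a log2 fold change of 0.40 ± 0.29 (SE; edgeR, adjusted p = 1). The interval includes equal levels as well as a level 2.02 times higher in apical cells. By edgeR 0 of 23806 genes were called between the daughters, with 1267 at an unadjusted p under 0.05, and DESeq2 called 80 genes, for which its adjusted p for sgo1 was 0.972.

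**Figure D2:**
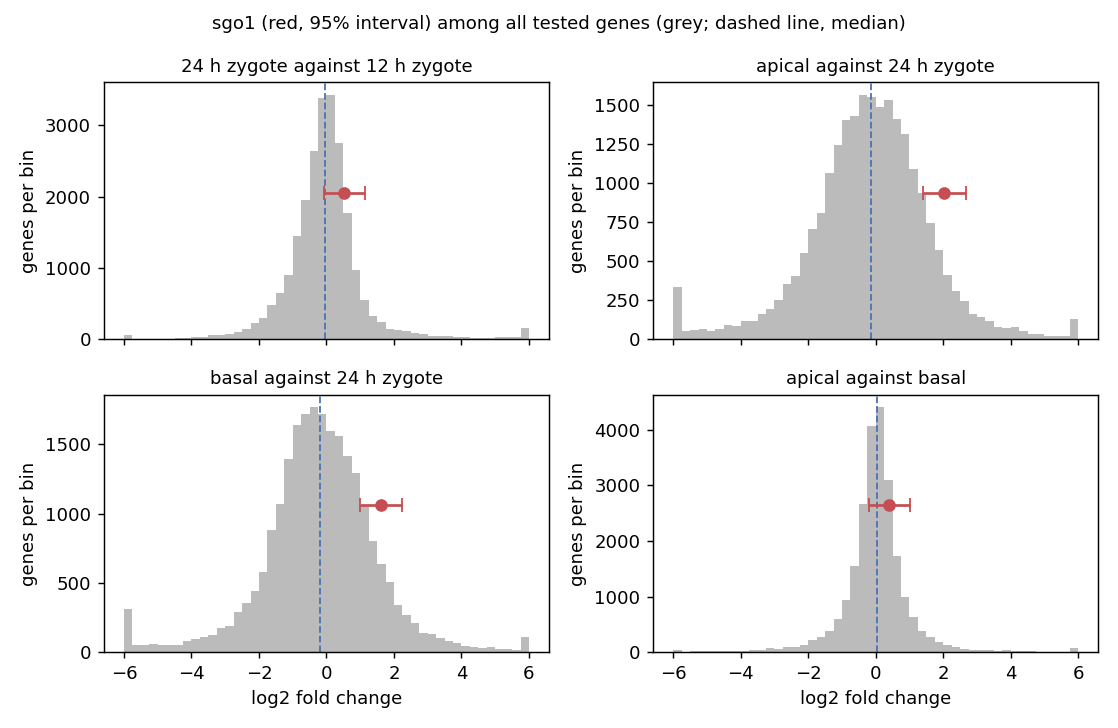
Histograms of the log2 fold changes of all 23806 tested genes in 4 comparisons, with values beyond the axis counted in the end bins; the dashed line is their median and the red point with its bar is sgo1 with its 95% interval, drawn at an arbitrary height. The point lies at 2.03 for apical and 1.62 for basal cells against the 24 h zygote, and its bar crosses 0 in the other 2 comparisons.

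Genes of chromosome segregation and meiosis were taken from 7 lists, matched by symbol. These were lists of shugoshin, cohesin, condensin, centromere, spindle checkpoint, phosphatase 2A and meiosis genes. The meiosis list gave 7 IDs, among them genes of recombination and pairing, which are not taken here as partners of shugoshin. The reference gives few symbols: the lists hold 12 IDs apart from sgo1, with 0 for condensin and 0 for phosphatase 2A. The centromeric histone gene cenH3 is not given because its IDs match more than 1 reference gene. All 12 were tested in each comparison.

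Of the cohesin genes, SMC3, a core subunit of the ring, had the same order of groups as sgo1 outside sperm. In sperm, where sgo1 had 0 counts, it stood at 306 ± 16.3 CPM. Its mean CPM was 107 ± 35.7 in egg, 34.5 ± 8.40 in the 12 h zygote, 60.0 ± 4.17 in the 24 h zygote, 215 ± 34.2 in the apical cell and 168 ± 18.4 in the basal cell (SD, n = 3 each). By library size only, SMC3 in sperm was below both daughters. The highest sperm library, replicate 2, held 3723 SMC3 counts of 25000878. The lowest daughter library, basal replicate 2, held 3067 of 18410147. SMC3 was higher in sperm than in egg by 1.48 ± 0.26 on the log2 scale (edgeR, adjusted p = 8.53e-05). It fell by 1.59 on the log2 scale from egg to 12 h (edgeR, adjusted p = 0.000697), and its 24 h value did not pass against 12 h (edgeR, adjusted p = 0.251). It rose across the division by 1.78 ± 0.27 in apical and 1.43 ± 0.27 in basal cells, as log2 fold changes (edgeR, adjusted p = 0.000817 and 0.00357). Each of these SMC3 calls held without any 1 library of the groups compared, with library size only and with a replicate block.

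The kleisin gene afd1 held 253 to 303 CPM in sperm against 73.6 to 92.6 CPM in egg, higher in sperm by a log2 fold change of 1.66 ± 0.32 (edgeR, adjusted p = 0.000268, and 0.0548 with library size only). At 12 h it stood at 36.8 ± 20.6 CPM, lower than in egg (edgeR, adjusted p = 0.0134), a call lost with library size only and without egg replicate 2 or zygote 12 h replicate 1 or 3, with adjusted p up to 0.121. It stood at 42.2 to 59.4 CPM in 24 h zygotes, 81.4 to 114 CPM in the apical and 76.5 to 122 CPM in the basal libraries. With TMM scaling neither daughter overlapped 24 h, and neither difference passed (edgeR, adjusted p = 0.0556 and 0.0794). By library size only the basal and 24 h ranges overlapped. Zygote 24 h replicate 3 held 1470 afd1 counts of 18159143, and basal replicate 3 held 1410 of 18199750.

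At the kinetochore, CenpcA, which encodes the centromere protein CENP-C that links centromeric chromatin to the outer kinetochore, reached 313 ± 38.4 CPM in sperm against 50.7 ± 10.8 CPM in egg. The gene MIS12-1, for a subunit that joins CENP-C to the microtubule-binding parts, reached 156 ± 11.3 CPM in sperm against 21.7 ± 5.96 CPM in egg. Both were higher in sperm, by log2 fold changes of 2.58 and 2.81 (edgeR, adjusted p = 3.37e-07 and 5.37e-06). CenpcA was at 23.6 ± 2.94 CPM at 12 h and 62.4 ± 13.3 CPM at 24 h, a log2 fold change of 1.39 ± 0.28 (edgeR, adjusted p = 0.0220) whose call was lost with library size only and in 5 of 6 fits without 1 library, all but that without zygote 24 h replicate 2. Its levels in the daughters, 55.8 ± 10.8 and 46.2 ± 10.3 CPM, did not pass against 24 h (edgeR, adjusted p = 0.577 and 0.215). MIS12-1 was at 16.4 ± 2.85 CPM at 24 h and lower in apical cells, at 5.63 ± 2.93 CPM, a log2 fold change of −1.60 ± 0.43 (edgeR, adjusted p = 0.0167, and up to 0.0561 when zygote 24 h replicate 1 or 2 or apical replicate 2 or 3 was left out).

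The spindle checkpoint gene mad2, whose product holds back anaphase until chromosomes are attached, reached 2489 ± 380 CPM in sperm against 140 ± 31.1 CPM in egg, a log2 fold change of 4.11 ± 0.34 (edgeR, adjusted p = 2.41e-08). It was at 71.5 ± 20.7 CPM at 12 h and rose to 258 ± 43.1 CPM at 24 h (edgeR, adjusted p = 0.00983, and up to 0.0813 without zygote 24 h replicate 1 or zygote 12 h replicate 1 or 3). In basal cells it was at 585 ± 134 CPM, higher than at 24 h (edgeR, adjusted p = 0.0281, and up to 0.121 with library size only and without any 1 library other than basal replicate 1), and in apical cells at 477 ± 199 CPM (edgeR, adjusted p = 0.0711). So the 5 listed genes of cohesin, the kinetochore and the checkpoint were all called higher in sperm than in egg, although with library size only the call of afd1 was lost. Over all 12 listed genes, meiosis genes included, 6 were called higher and 2 lower, against 24.7% and 39.3% of all tested genes. The 0 counts of sgo1 in sperm are what it was chosen for, so its standing apart from the 5 genes there is no finding.

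**Figure D3:**
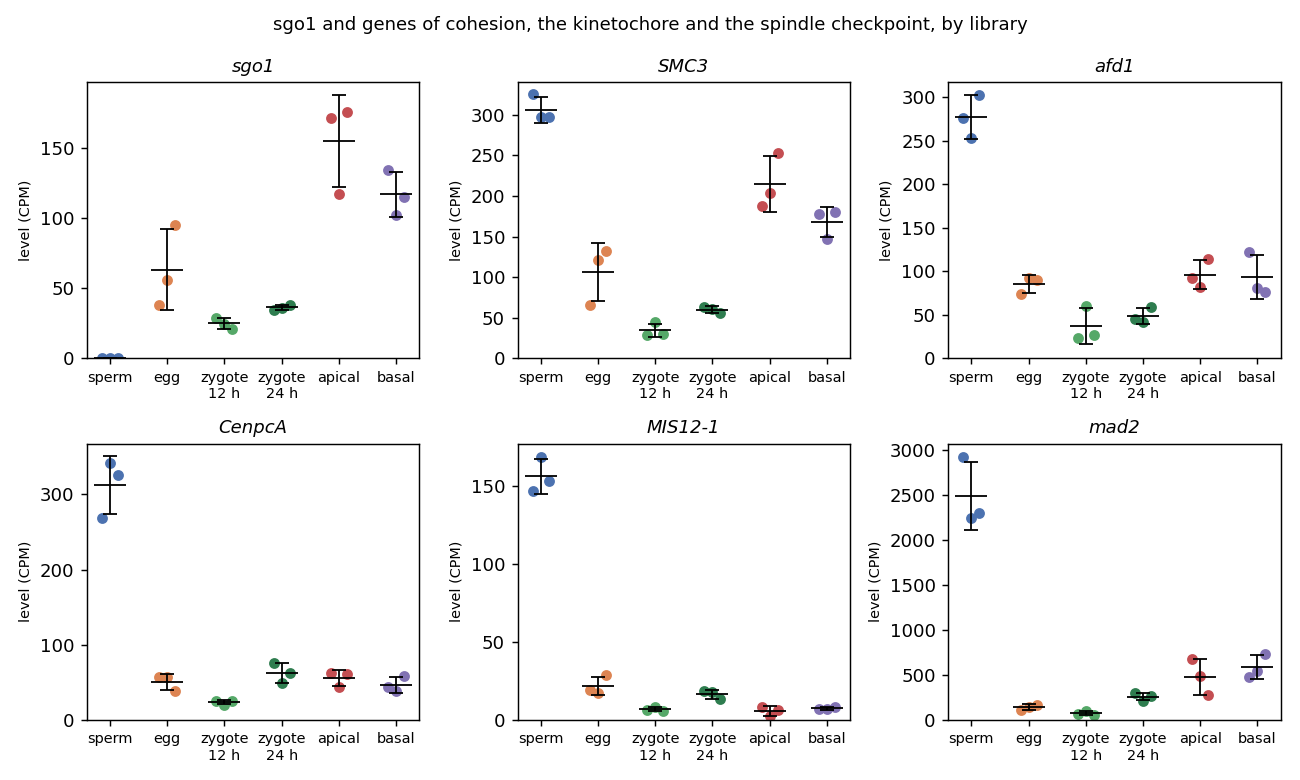
Levels in CPM by library of sgo1, the cohesin genes SMC3 and afd1, the kinetochore genes CenpcA and MIS12-1 and the checkpoint gene mad2; points are libraries, the horizontal mark is the mean of 3 and bars are ± 1 SD, and each panel has its own axis from 0. With TMM scaling, sperm is the highest group for the 5 other genes, while sgo1 is at 0 in sperm and highest in the daughters. By library size only, SMC3 in sperm lies below both daughters.

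Ratios of counts within a library do not depend on the scaling between libraries. They carry the lengths of both genes, so that only their change between libraries can be read. The ratio of sgo1 to SMC3 counts was 0 in sperm and between 0.464 and 0.995 in the 15 other libraries, a 2.14-fold span. Its medians were 0.584 in egg, 0.711 at 12 h, 0.593 at 24 h, 0.696 in apical and 0.694 in basal cells, and each group overlapped every other of these groups. Against afd1 the ratio spanned 4.54-fold over the 15 libraries, with 0.648 to 0.860 at 24 h, 1.44 to 1.86 in apical and 1.10 to 1.504 in basal cells. Against CenpcA it was 0.458 to 0.737 at 24 h, 2.71 to 2.86 in apical and 1.99 to 3.12 in basal cells. Both daughters were above the 24 h zygote in these 2 ratios, with no overlap. Against afd1 the highest ratio was 1.06 in egg and 1.26 at 12 h, and against CenpcA 2.49 in egg and 1.22 at 12 h. Of these, the afd1 value at 12 h and the CenpcA value in egg lay within the basal range. Against MIS12-1 the span was 24.2-fold, from 1.90 to 2.93 at 24 h to 20.5 to 46.1 in apical cells. The ratio to mad2 was 0.117 to 0.172 at 24 h and 0.241 to 0.644 in apical cells, with no overlap. The basal range of 0.156 to 0.281 overlapped that at 24 h. In egg the mad2 ratio was 0.362 to 0.569 and at 12 h 0.259 to 0.471, both above 24 h and overlapping the apical range.

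Of the meiosis genes, ZYP1, which encodes a protein of the synaptonemal complex, had a mean CPM of 22.4 ± 8.48 in sperm and 72.4 ± 4.10 in egg. In sperm it was lower than in egg, with a log2 fold change of −1.74 ± 0.29 (edgeR, adjusted p = 5.68e-05). Its mean CPM was 97.5 ± 21.2 in the 12 h zygote, 162 ± 20.3 in the 24 h zygote, 341 ± 96.6 in the apical cell and 317 ± 63.5 in the basal cell. It was higher in apical than in 24 h cells by a log2 fold change of 1.01 ± 0.25 (edgeR, adjusted p = 0.0101), a call lost without apical replicate 1 and with library size only, with adjusted p up to 0.0796. The basal call (edgeR, adjusted p = 0.0219) was lost with library size only and without any 1 library other than basal replicate 2. The meiotic recombinase gene Dmc1 reached 860 ± 40.9 CPM in sperm and 277 ± 154 CPM in the eggs, and fell to 51.3 ± 11.3 CPM at 12 h (edgeR, adjusted p = 0.000530). Its higher level in sperm than in egg passed (edgeR, adjusted p = 0.000787), but not with library size only (edgeR, adjusted p = 0.136). In 24 h zygotes its mean CPM was 43.2 ± 7.05, in the apical cell 26.1 ± 10.7 and in the basal cell 29.5 ± 3.79, and neither daughter passed against 24 h (edgeR, adjusted p = 0.130 and 0.258). Spo11-2, of the enzyme family that cuts DNA to start recombination, was also lower at 12 h than in egg (edgeR, adjusted p = 0.00533). So was PHS1, needed for pairing of homologues (edgeR, adjusted p = 0.0325). PHS1 lost its call with library size only and without zygote 12 h replicate 1 or 3 or egg replicate 2 or 3. Like ZYP1, Spo11-2 was lower in sperm than in egg, at 19.1 ± 3.07 against 65.9 ± 30.6 CPM (edgeR, adjusted p = 0.00212). The gene am1, needed to enter meiosis, had 0 counts in sperm and egg, 14, 14 and 17 counts at 12 h, and 12, 9 and 4 counts at 24 h. Rad51A2 and rad51a encode recombinases whose similar sequences can share reads, and the reference lists the name Rad51A2 for both, so their counts are uncertain. Rad51A2 was higher in both daughters than at 24 h (edgeR, adjusted p = 0.0291 and 0.0328), calls lost with library size only and without any 1 library other than replicate 2 of the daughter. The other copy, rad51a, did not pass in any of the 6 comparisons, with adjusted p = 0.0877 (edgeR) or more.

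Counted over the 12 genes, 6 were higher and 2 lower in sperm than in egg, where 24.7% of all tested genes were higher and 39.3% lower. Scaled by library size alone, the counts were 4 and 3. From egg to 12 h, 1 rose, am1, and 8 fell, against 19.4% and 18.1% of all genes. With library size only 2 rose and 3 fell. The call of am1 was lost without zygote 12 h replicate 3 or egg replicate 2 or 3, and the number of genes that fell was 5 without zygote 12 h replicate 1, 5 without zygote 12 h replicate 3 and 4 without egg replicate 2. From 12 h to 24 h 2 rose and 0 fell, against 1% and 0.0378% of all genes, and 0 rose without zygote 24 h replicate 1 or zygote 12 h replicate 1 or 3, and 1 without zygote 24 h replicate 3 or zygote 12 h replicate 2. In apical cells against 24 h, 3 rose and 1 fell, against 13% and 11.8%, and 1 rose without apical replicate 1 or with library size only. In basal cells against 24 h 4 rose and 0 fell, against 9.81% and 8.15%, and 1 rose with library size only or without basal replicate 3 or any of the 3 libraries at 24 h, and 2 without basal replicate 1. The median log2 fold change of the 12 genes was 1.07 in sperm against egg, −1.12 at 12 h against egg, 0.48 at 24 h against 12 h, 0.07 in apical and −0.14 in basal cells against 24 h. Without am1, whose fitted values rest on few or 0 counts, the medians of the 11 other genes were 1.48, −1.18, 0.54, 0.35 and 0.22, so that the sign in basal cells turned. The medians over all tested genes were −0.80, 0.06, −0.05, −0.13 and −0.20.

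**Figure D4:**
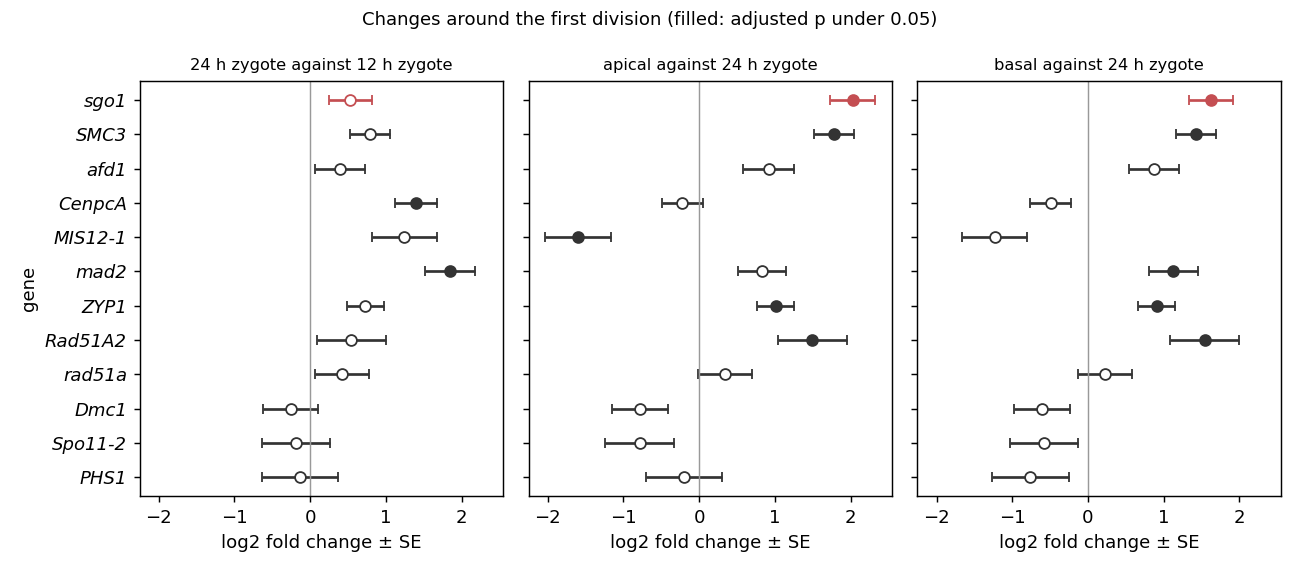
Log2 fold changes with SE of sgo1 (red) and 11 listed genes in 24 h against 12 h zygotes and in each daughter against 24 h zygotes; filled points passed at an adjusted p under 0.05, and am1 is left out for its low counts. The points of sgo1 and SMC3 are filled in both daughter panels, at 2.03 and 1.78 in apical cells.

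Genes whose pattern was most like that of sgo1 were sought by Pearson's r of log2(CPM + 1), a description in which the points share their libraries and scaling. Over all 18 libraries the closest of 24835 genes was GRMZM2G357923, without a name in the reference, at r = 0.995. It also had 0 counts in sperm, and its mean CPM was 65.9 ± 26.9 in egg, 23.2 ± 6.53 in the 12 h zygote, 47.1 ± 8.80 in the 24 h zygote, 171 ± 32.6 in the apical cell and 155 ± 16.2 in the basal cell. GRMZM2G079817 and GRMZM2G175272 followed, at r = 0.994 and 0.993, and then nfa103 (GRMZM2G157019) and nfa101 (GRMZM2G140051), both at r = 0.993, which belong by their symbols to the nucleosome assembly factors of group A. Of the named genes, the next were elfa3 (GRMZM2G154218, r = 0.989), a translation elongation factor gene by its symbol, pac1 (GRMZM2G058432, r = 0.989), a WD-repeat gene of pigment control, and Cullin-1 (GRMZM2G166089, r = 0.988), a scaffold of ubiquitin ligases. Such values were common, with 1587 genes at r over 0.9, and genes low in sperm all share that contrast, which is also what sgo1 was chosen for.

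Without the sperm libraries the closest of 23806 genes over 15 libraries were GRMZM2G043150 at r = 0.987, GRMZM2G033117 at r = 0.985, nfc101 (GRMZM2G137965) at r = 0.982, GRMZM2G057450 at r = 0.981 and GRMZM2G023232 at r = 0.980. The reference also calls nfc101 rbap2, after histone-binding proteins. The other named genes were nfc102 (GRMZM2G316113, r = 0.979), ABP3 (GRMZM2G060702, r = 0.973), listed also as the actin-depolymerizing factor gene ADF3, nfd110 (GRMZM2G032252, r = 0.965), listed also as ssrp1, a subunit of the histone chaperone FACT, and SMC3 (r = 0.963). Of these, nfc101, GRMZM2G057450, nfc102 and SMC3 had their sperm means above their egg means, at 269 ± 43.7, 361 ± 27.1, 644 ± 47.3 and 306 ± 16.3 CPM in sperm, and over 18 libraries their r with sgo1 was −0.03, 0.126, −0.26 and −0.23. By library size only, the sperm mean of GRMZM2G057450 was below its egg mean, and the other order held for nfc101, nfc102 and SMC3. Here 754 genes had r over 0.9. The r of the other listed genes over the 15 libraries was 0.828 for Rad51A2, 0.811 for afd1, 0.794 for mad2 and 0.724 for ZYP1. It was 0.618 for rad51a and 0.431 for CenpcA. The rest were negative: −0.25 for Spo11-2, −0.27 for PHS1, −0.28 for MIS12-1, −0.29 for Dmc1 and −0.61 for am1. Over all 18 libraries the highest r of the listed genes was 0.894, for ZYP1.

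**Figure D5:**
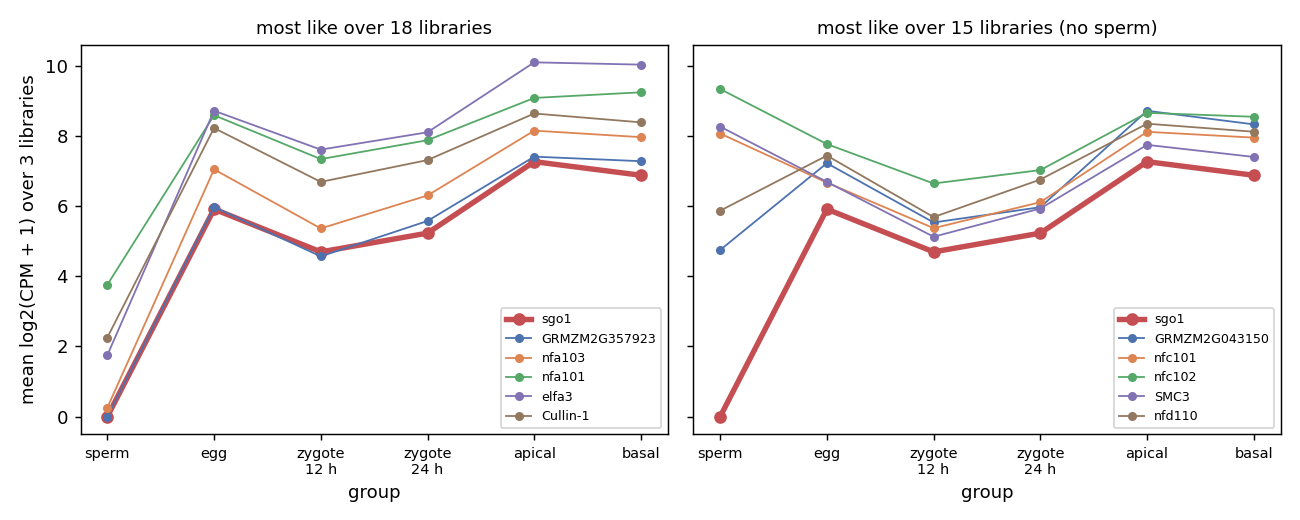
Mean log2(CPM + 1) over 3 libraries in the 6 groups for sgo1 (thick red line) and 5 of the genes most like it over all 18 libraries (left) or over the 15 libraries without sperm (right). Left, all lines are lowest in sperm and dip at 12 h; right, the lines dip at 12 h and are high in the daughters, but nfc101, nfc102 and SMC3 are high in sperm, where sgo1 is at 0.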

How the data were processed

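The authors deposited raw counts per gene ID for 18 libraries, with 0 further columns of samples. The submitters' processing notes name, with the build B73 RefGen_v3, the tools STAR 2.5.2a, featureCounts, DESeq2, cutadapt 1.13, Trimmomatic 0.32 and FastQC. Strand setting: not given in the sources used here, nor is the handling of reads that several genes share. Names came from a RefSeq gene table of another assembly, Zm-B73-REFERENCE-NAM-5.0, so no coordinates are given; it paired 18387 IDs with 1 gene, and 521 that matched more stayed unnamed.

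The gene, lists and tests were chosen with earlier results of these data known. Levels are CPM with TMM factors over all genes. Tests used edgeR 4.0.16 in R 4.3.3 (quasi-likelihood, robust, TMM, filterByExpr) with Benjamini-Hochberg adjustment over all tested genes and a threshold of 0.05. Sperm against egg came from a fit of 18 libraries, the 5 other comparisons from the 15 without sperm. SE is the absolute log2 fold change over the square root of F. The rule names sgo1, the cohesin genes, the called member of lowest adjusted p per other list and direction from egg to 12 h and 12 h to 24 h, and the 5 genes and 5 named genes most like sgo1. Other listed members were named after their values were seen. The fit of the 15 libraries was run on simulated counts for 24 h against 12 h zygotes only, with changes larger than that of sgo1 there. The other comparisons, sperm against egg included, were not simulated. No 2 libraries of a group agreed within sampling noise (chi-square over genes with at least 20 counts). Alternatives were other scalings, DESeq2 1.42.0, no filter, a fit of 2 groups, a replicate block and leaving out each library.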

Additional observations from a re-analysis of the deposited data

How the results depend on the processing

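The rise of sgo1 in both daughters passed, and its comparisons of 24 h with 12 h zygotes and of apical with basal cells did not pass, under every alternative run, and 0 directions changed. Without 1 library the log2 fold change was 1.88 to 2.20 in apical and 1.497 to 1.675 in basal cells against 24 h, 0.44 to 0.65 at 24 h against 12 h and 0.29 to 0.57 in apical against basal cells. With the replicate block these were 2.01, 1.62, 0.52 and 0.39. The replicate numbers were not taken as pairs, since in no comparison did all 3 same-numbered pairs deviate together (r of 0.344, 0.386 and −0.03 between apical and basal cells). Apical replicates 1 and 2 did match best the basal library of their own number. A paired difference within these 2 groups alone was not tested. With library size only the level of sgo1 was 37.5 CPM at 12 h and 50.4 CPM at 24 h, and 31.9 CPM at 24 h with upper-quartile scaling; the lower bound of egg over sperm was 1344-fold and 348-fold. Leaving out 1 library moved the egg mean between 47.4 and 75.8 CPM. Of the 12 listed genes, with library size only 2 rose and 3 fell at 12 h against egg, 1 rose at 24 h against 12 h, 1 rose and 2 fell in apical cells, and 1 rose and 1 fell in basal cells. Without 1 library, an alternative chosen after seeing the data, 0 to 1 rose and 4 to 9 fell at 12 h against egg, 0 to 2 rose at 24 h against 12 h, 1 to 3 rose and 0 to 1 fell in apical cells, and 1 to 3 rose in basal cells. The cause was not tested. Of the 10 genes most like sgo1 over 18 libraries, 1 was among the 10 by Spearman's rho and 0 among the 10 over the 15 libraries.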

Other observations

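How sgo1 compares with other genes chosen by the same values was also counted. Of 13847 genes with 0 counts in all sperm libraries, 761 reached at least 1 CPM in all egg libraries, and sgo1 ranked 52 among these by its mean egg level. Their median egg level was 10.1 CPM, and that of the 288 genes just outside, with exactly 1 count over the 3 sperm libraries, was 11.8 CPM. Of the 761 genes, 8.67% were higher and 19.8% lower in apical cells than in 24 h zygotes (edgeR, adjusted p under 0.05), against 13% and 11.8% of all tested genes. In basal cells 5.78% were higher and 14.5% lower, against 9.81% and 8.15%. As sgo1 did, 40 of the 761 genes, 5.26%, rose in both daughters, against 8.78% of all tested genes. The sets are unlike, because 23806 genes were tested but only 14129 reached at least 1 CPM in all egg libraries. These shares are therefore not read as a trait of the 761 genes. By the log2 fold change in apical cells sgo1 ranked 43 and in basal cells 60 among the 761.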
